A study of Mus musculus with 6 samples.

Results

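Chemokines are small secreted proteins that draw leukocytes along a gradient, and fibroblasts are one of their sources in inflamed tissue. The 8 chemokine genes described here, Cxcl10, Ccl2, Ccl7, Ccl5, Cxcl1, Cxcl5, Cxcl12 and Cx3cl1, were taken by gene symbol as a fixed list, out of 24062 genes counted. All 8 had a row in the count tables, and 7 of them passed the filter on low counts and were tested among 13185 genes; Ccl5 did not. Counts came from NIH3T3 cells, an established line of mouse embryonic fibroblasts, in 6 libraries. The study asked how SPT6, a histone chaperone and transcription elongation factor encoded by Supt6, bears on transcription stimulated by interferon beta (IFN-beta).

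All cells had been transfected for 48 h with an siRNA, a single one against SPT6 or a negative control (NC) one, here called control siRNA. A group with SPT6 siRNA and IFN-beta (100 units/ml for 4 h) and one with control siRNA and IFN-beta had 2 libraries each, replicates 1 and 2. Untreated cells with SPT6 siRNA and untreated cells with control siRNA had 1 library each, replicate 1, placed at 0 h by the titles, so 4 h of culture and IFN-beta cannot be told apart. Whether the replicates were separate cultures is not said, and p-values therefore measure the spread between these libraries, which may be technical.

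The secreted chemokines fall into families by the spacing of their first cysteines. Cxcl10 is a CXC chemokine that acts on Cxcr3 of activated T cells and natural killer cells and is a classical interferon-induced gene. Ccl2 and Ccl7 are CC chemokines that recruit monocytes through Ccr2, and Ccl5 is a CC chemokine that attracts T cells and monocytes. Cxcl1 and Cxcl5 attract neutrophils through Cxcr2, Cxcl12 retains haematopoietic cells through Cxcr4 and is made by stromal cells without stimulation, and Cx3cl1 is a membrane-bound chemokine that is shed by metalloproteases. Inducible members are commonly controlled by NF-kappaB, and Cxcl10 also by the interferon-stimulated response element (ISRE).

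Upstream sequence is shown for 3 of the genes because they stand for the 3 patterns in these data, a gene called higher with IFN-beta, a gene with lower values and a gene whose level followed the replicate number. Sequences are from RefSeq on GRCm38.p6 and run 5′ to 3′ on the gene's strand from 250 to 11 bases before the annotated start. A promoter was listed for 4 of the 8 members. Capitals mark matches, on either strand, to the ISRE core (TTTC, any 2 bases, TTTC), the gamma-activated site TTCNNNGAA, TATAAA or the NF-kappaB consensus.
Cxcl10, chr5:92348900-92349139, minus strand: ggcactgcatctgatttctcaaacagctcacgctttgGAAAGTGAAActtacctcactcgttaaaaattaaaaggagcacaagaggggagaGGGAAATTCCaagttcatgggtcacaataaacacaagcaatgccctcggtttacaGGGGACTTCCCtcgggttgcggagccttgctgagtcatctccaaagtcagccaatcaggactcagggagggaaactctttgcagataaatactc
Cxcl1, chr5:90890995-90891234, plus strand: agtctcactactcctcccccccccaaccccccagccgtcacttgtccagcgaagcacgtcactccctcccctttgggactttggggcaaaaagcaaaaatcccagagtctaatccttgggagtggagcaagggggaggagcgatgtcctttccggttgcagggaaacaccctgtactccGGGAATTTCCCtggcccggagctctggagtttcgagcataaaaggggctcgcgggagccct
Cxcl12, chr6:117168285-117168524, plus strand: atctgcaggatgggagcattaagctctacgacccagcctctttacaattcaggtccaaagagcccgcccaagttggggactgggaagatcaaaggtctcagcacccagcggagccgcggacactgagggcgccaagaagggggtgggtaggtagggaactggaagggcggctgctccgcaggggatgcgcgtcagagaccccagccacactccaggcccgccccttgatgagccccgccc
In the Cxcl10 window the ISRE core matched on the opposite strand at 213 to 204 bases before the start. The NF-kappaB consensus matched there at 159 to 150 bases and in a pair of overlapping positions between 104 and 94 bases. In the Cxcl1 window the NF-kappaB consensus matched on both strands, overlapping, between 71 and 61 bases. Neither the Cxcl12 window nor that of Cx3cl1 held any of the 4 motifs. The Cx3cl1 window (chr8:94771930-94772169) was set by the RefSeq start and runs past the gene start given below, 94772009. Among all 32851 listed promoter windows of this length, 2.87% held the ISRE core, 6.96% the NF-kappaB consensus, 6.77% the gamma-activated site and 12.1% TATAAA. A match is a match of letters, not a bound site.

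Counts assigned to genes ranged from 7935961 to 17596498 per library. Supt6 stood at 108 and 88.4 CPM (gene counts divided by the library size after TMM scaling, in the usual CPM unit) in IFN-beta cells with SPT6 siRNA, against 177 and 189 CPM with control siRNA, and at 101 CPM against 175 CPM in untreated cells. In the untreated pair the ratio was 0.580 (95% counting interval 0.535 to 0.629), and with IFN-beta the log2 difference was -0.90 ± 0.18, which did not pass the test (edgeR adjusted p = 0.247, DESeq2 adjusted p = 0.0306). Summed over 9 fibroblast marker genes, levels were 11752 and 11537 CPM with SPT6 siRNA and IFN-beta. With control siRNA and IFN-beta they were 17251 and 15193 CPM. The log2 difference was below 0 for 8 of the 9 genes, such as Col1a1 and Vim, and above 0 for Pdgfra (0.13). Groups did not overlap for 5 of the 9, all lower, beside 44% of all genes in either direction, and 0 were called. A list of 8 macrophage markers, cells that also make chemokines, had 7 genes among those counted. These summed to 16.9 and 18.9 CPM with SPT6 siRNA and IFN-beta, against 9.26 and 7.83 CPM with control siRNA and IFN-beta. Cd68 was the highest of them with SPT6 siRNA and IFN-beta (7.75 and 9.92 CPM, against 2.71 and 2.20 CPM with control siRNA). With control siRNA and IFN-beta the highest was Cd14 (3.16 and 4.04 CPM, against 4.59 and 5.04 CPM with SPT6 siRNA). Ptprc was at 0 counts in one SPT6 siRNA library with IFN-beta, Lyz2 in the other, and Itgam in both control libraries with IFN-beta. T cell markers summed to at most 0.783 CPM. The part of these marker differences in the chemokine values was not tested. In such bulk RNA, fewer cells that express a gene and less RNA per cell cannot be told apart.

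**Figure D1:**
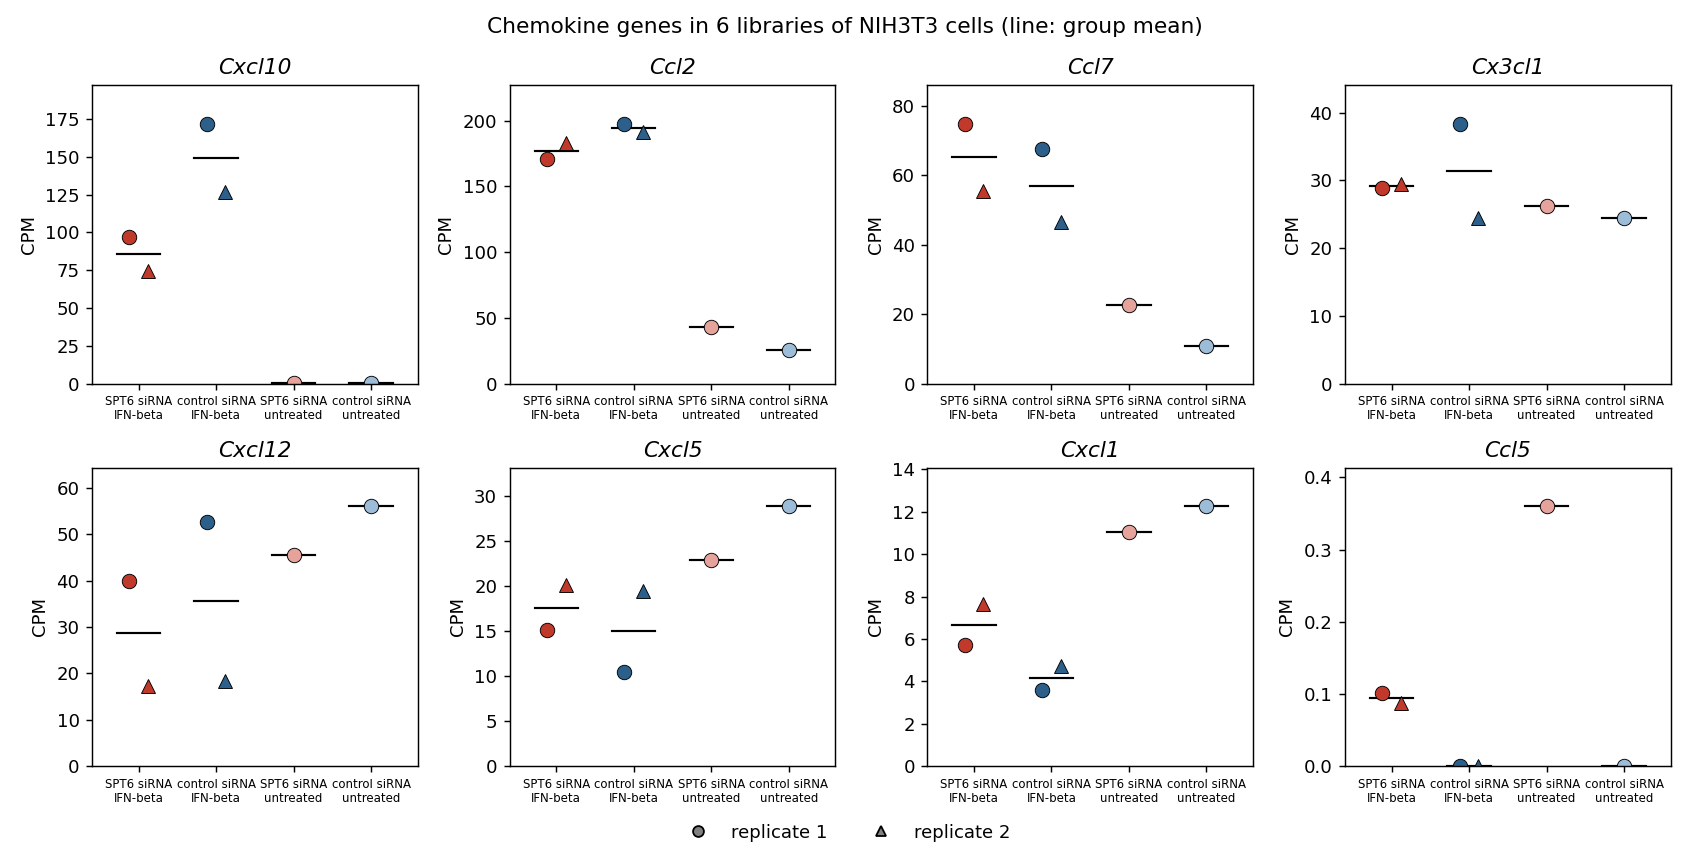
Level of each of the 8 chemokine genes in CPM (y axis, from 0) in the 6 libraries, with circles for replicate 1, triangles for replicate 2 and a line at the group mean. Cxcl10, Ccl2 and Ccl7 were higher in every IFN-beta library than in the untreated ones, while Cxcl1 was lower in all 4 of them and Ccl5 had at most 3 counts in any library.

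Cxcl10 (chromosome 5, 92346638 to 92348889, minus strand, GRCm38; protein coding) was almost silent without IFN-beta and abundant with it. It had 949 and 860 counts (96.7 and 74.8 CPM) with SPT6 siRNA and IFN-beta, against 4 counts (0.480 CPM) in untreated cells with SPT6 siRNA. With control siRNA it had 2281 and 2131 counts (172 and 126 CPM) with IFN-beta, against 3 counts (0.247 CPM) untreated. All 4 IFN-beta libraries thus lay far above both untreated ones. The log2 difference was 7.45 ± 0.50 (SE) with SPT6 siRNA (edgeR's quasi-likelihood test, p adjusted over all tested genes by Benjamini-Hochberg = 0.0311). Under control siRNA it was 9.18 ± 0.53 (adjusted p = 0.0111), and the ratio of levels was 605 with a 95% counting interval of 207 to 2933. These SEs come from the F statistic and understate the counting error of the 4 and 3 untreated counts. Both calls were lost with limma-voom (adjusted p = 0.307 with SPT6 siRNA and 0.112 with control siRNA). Exons of Cxcl10 share 133 bases with Art3 on the other strand, which had at most 4 counts in any library.

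Ccl2 (chromosome 11, 82035571 to 82037453, plus strand; protein coding) rose with IFN-beta under control siRNA and had a similar level with IFN-beta under either siRNA. It stood at 171 and 183 CPM with SPT6 siRNA and IFN-beta, against 42.9 CPM in untreated cells with SPT6 siRNA. With control siRNA it stood at 197 and 191 CPM with IFN-beta, against 25.6 CPM untreated. The 4 IFN-beta libraries lay within 171 to 197 CPM, and the untreated libraries differed more from each other in proportion than the IFN-beta ones did. The log2 difference was 2.04 ± 0.21 (SE) with SPT6 siRNA, just outside the threshold (edgeR adjusted p = 0.0503; called in 3 of 11 alternative settings). With control siRNA it was 2.93 ± 0.22 (edgeR adjusted p = 0.0171; called in 11 of 11).

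Ccl7 (chromosome 11, 82045712 to 82047525, plus strand; protein coding) lies 8258 bases downstream of Ccl2 and had higher values with IFN-beta, which did not pass the test. It stood at 74.8 and 55.5 CPM with SPT6 siRNA and IFN-beta, against 22.8 CPM untreated with SPT6 siRNA. Under control siRNA it stood at 67.5 and 46.5 CPM with IFN-beta, against 10.8 CPM untreated. The log2 difference was 1.52 ± 0.34 (SE) with SPT6 siRNA (edgeR adjusted p = 0.486, DESeq2 adjusted p = 0.0109) and 2.40 ± 0.36 with control siRNA (edgeR adjusted p = 0.123, DESeq2 adjusted p = 1.8e-07). In each siRNA arm replicate 1 was the higher IFN-beta library.

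Of the 7 tested members, 1 was called higher in the IFN-beta response with SPT6 siRNA, where 0.0455% of all genes were called higher, and 2 in the response with control siRNA, where 0.137% were. None was called lower in either response in the edgeR fit of the 4 group means, as for 0% of all genes. At an unadjusted p under 0.05, 0 members with SPT6 siRNA and 2 with control siRNA (Cxcl1 and Cxcl5) had lower values, beside 2.01% and 2.94% of all genes. The IFN-beta libraries lay wholly to one side of the untreated one for 7 of 7 members with SPT6 siRNA and for 6 of 7 with control siRNA, which was also so for 69.1% and 73.3% of all genes. The median log2 difference over the members was 0.15 with SPT6 siRNA and 0.36 with control siRNA, beside 0.00496 and -0.00533 over all genes.

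**Figure D2:**
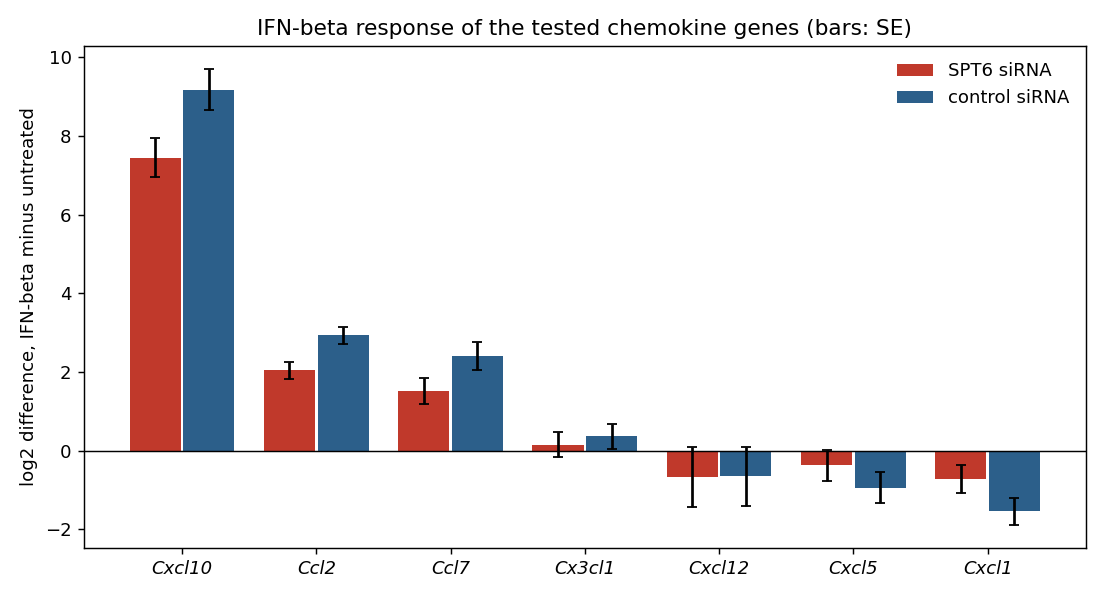
Log2 difference of IFN-beta minus untreated for the 7 tested chemokine genes, with SPT6 siRNA and with control siRNA as neighbouring bars. Error bars are SE from the edgeR fit, and those of Cxcl10 understate the counting error of its few untreated counts. Cxcl10 reached 7.45 and 9.18, Ccl2 2.04 and 2.93, and Cxcl1 and Cxcl5 lay below 0 in both arms.

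The neutrophil chemokine genes Cxcl1 and Cxcl5, both on chromosome 5, had lower values with IFN-beta, without passing the test. Cxcl1 (90891241 to 90893115, plus strand; protein coding) stood at 5.71 and 7.65 CPM with SPT6 siRNA and IFN-beta, against 11.0 CPM untreated with SPT6 siRNA. With control siRNA it stood at 3.61 and 4.75 CPM with IFN-beta, against 12.2 CPM untreated, so that no IFN-beta library reached an untreated one. The log2 differences were -0.72 ± 0.35 with SPT6 siRNA (edgeR adjusted p = 0.879) and -1.54 ± 0.35 with control siRNA (edgeR adjusted p = 0.311, unadjusted p = 0.00326). Cxcl5 (90759360 to 90761624, plus strand; protein coding) stood at 15.1 and 20.1 CPM with SPT6 siRNA and IFN-beta, against 22.9 CPM untreated, a log2 difference of -0.38 ± 0.41 (edgeR adjusted p = 0.903). In the control siRNA arm it stood at 10.5 and 19.5 CPM with IFN-beta, against 28.8 CPM untreated, a log2 difference of -0.94 ± 0.39 (edgeR adjusted p = 0.605). The lowest library for both genes was control siRNA with IFN-beta, replicate 1.

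Cx3cl1 and Cxcl12 did not pass the test for the IFN-beta response in either arm. Cx3cl1 (chromosome 8, 94772009 to 94782427, plus strand; protein coding) stood at 28.9 and 29.4 CPM with SPT6 siRNA and IFN-beta, against 26.3 CPM untreated, a log2 difference of 0.15 ± 0.31 (edgeR adjusted p = 0.957). With control siRNA it stood at 38.3 and 24.4 CPM with IFN-beta, against 24.4 CPM untreated, a log2 difference of 0.36 ± 0.31 (edgeR adjusted p = 0.779), which was -0.0096 without control siRNA IFN-beta replicate 1. Cxcl12 (chromosome 6, 117168535 to 117181367, plus strand; protein coding) stood at 40.0 and 17.3 CPM with SPT6 siRNA and IFN-beta, against 45.4 CPM untreated. Under control siRNA the gene stood at 52.6 and 18.5 CPM with IFN-beta, against 56.0 CPM untreated. Replicate 2 was the low library in both arms. The log2 difference of the response was -0.67 ± 0.77 with SPT6 siRNA and -0.66 ± 0.76 with control siRNA (edgeR adjusted p = 0.911 and 0.837). Without replicate 2 of the arm concerned these were -0.20 and -0.09, and without replicate 1 they were -1.40 and -1.61.

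The gap between replicates of one group was thus wide for some members and narrow for others. Within the IFN-beta groups, replicate 2 minus replicate 1 of Cxcl12 was -1.20 with SPT6 siRNA and -1.50 with control siRNA on the log2 CPM scale. A gap beyond 1 (more than 2-fold) was found for 7.82% and 5.89% of all tested genes in these pairs. Cxcl10 differed by -0.37 and -0.44, Ccl7 by -0.43 and -0.54, Cxcl5 by 0.41 and 0.89 and Cxcl1 by 0.41 and 0.38. Each had the same sign in both arms. Ccl2 differed by 0.10 and -0.05 and Cx3cl1 by 0.03 and -0.65, with opposite signs in the arms. The untreated libraries both carry replicate number 1, so a difference between the numbers and the IFN-beta response cannot be told apart in replicate 2.

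**Figure D3:**
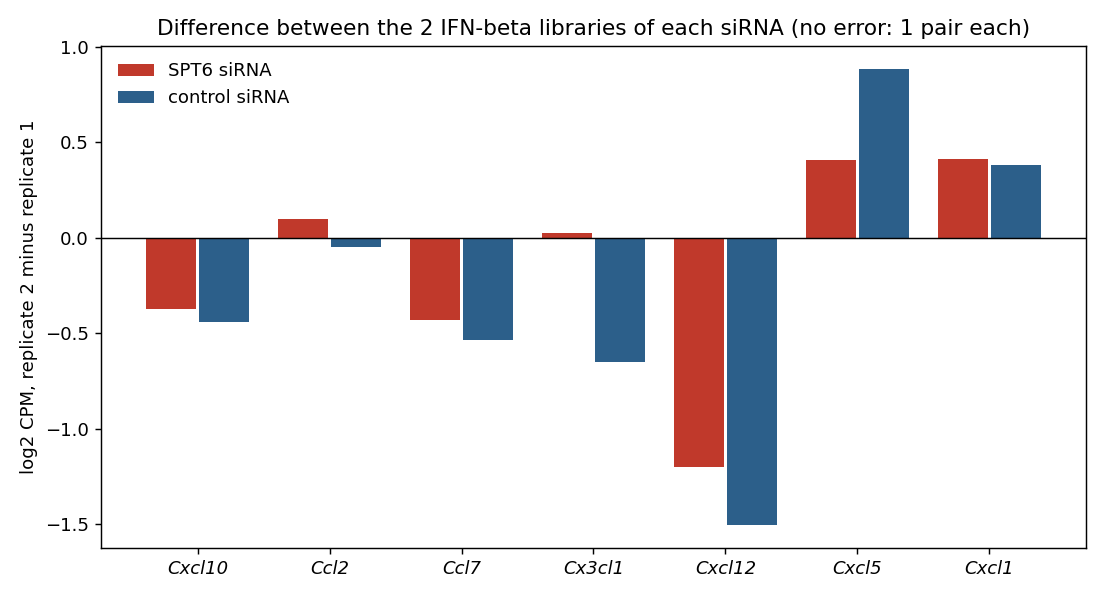
Log2 CPM of replicate 2 minus replicate 1 among IFN-beta libraries, for SPT6 siRNA and control siRNA as neighbouring bars, 1 pair of libraries per bar. Cxcl12 stood at -1.20 and -1.50, and Ccl2 at 0.10 and -0.05.

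The effect of SPT6 siRNA in IFN-beta cells had 2 libraries on each side. Cxcl10 was lower in both SPT6 siRNA libraries, at 85.8 ± 15.5 CPM (SD, n = 2), against 149 ± 32.0 CPM (SD, n = 2) with control siRNA, a log2 difference of -0.80 ± 0.23 (SE) or 0.575 times the control level. This did not pass the test over all genes (edgeR adjusted p = 0.349, unadjusted p = 0.0104). Within replicate 1 the difference was -0.83 and within replicate 2 it was -0.76. It ran from -1.01 to -0.55 when any 1 IFN-beta library was left out. Cxcl1 lay the other way, at 6.68 ± 1.38 CPM with SPT6 siRNA against 4.18 ± 0.802 CPM with control siRNA (SD, n = 2 each), a log2 difference of 0.67 ± 0.30 (edgeR adjusted p = 0.442). Within replicates 1 and 2 it was 0.64 and 0.67.

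Ccl2 and Ccl7 differed little. Ccl2 averaged 177 ± 8.32 CPM with SPT6 siRNA and 194 ± 4.42 CPM with control siRNA (SD, n = 2 each), a log2 difference of -0.14 ± 0.16 (edgeR adjusted p = 0.771), with both SPT6 siRNA libraries just below both control ones. Ccl7 averaged 65.2 ± 13.7 CPM with SPT6 siRNA and 57.0 ± 14.8 CPM with control siRNA (SD, n = 2 each), a log2 difference of 0.19 ± 0.25 (edgeR adjusted p = 0.803), and the groups overlapped. Its sign turned without SPT6 siRNA replicate 1 and without control siRNA replicate 2 (to -0.053 and -0.052). Cxcl5 (0.23 ± 0.33), Cxcl12 (-0.31 ± 0.64) and Cx3cl1 (-0.10 ± 0.25) also had overlapping groups. Without control siRNA replicate 1 these log2 differences were -0.13, 0.64 and 0.27, and without SPT6 siRNA replicate 2 that of Cxcl12 was 0.16.

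By edgeR 0 of 7 members were called in this comparison, as were 0 of 13185 genes (0%), of which 1538 (11.7%) had an unadjusted p under 0.05, Cxcl10 among them. DESeq2 called 62 genes and limma-voom 0, and no member was among them. Groups did not overlap for 3 of 7 members, Cxcl10 and Ccl2 lower and Cxcl1 higher, and for 44% of all genes. The median over the members was -0.10, beside -0.02 over all genes.

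Counts of a pair of genes in the same library give a ratio that library scaling does not touch, and these pairs were chosen after their values were seen. Cxcl10 over Ccl7 was 1.29 and 1.35 with SPT6 siRNA and IFN-beta, against 2.54 and 2.72 with control siRNA and IFN-beta. Cxcl10 over Ccl2 was 0.566 and 0.409 against 0.870 and 0.661. Both ratios were lower in each SPT6 siRNA library than in either control library. Cxcl1 over Cxcl5 lay the other way, at 0.378 and 0.381 against 0.345 and 0.244. Ccl7 over Ccl2 overlapped, at 0.437 and 0.304 against 0.342 and 0.243. How often ratios of other gene pairs separate in this way was not counted. The difference of mean log2 ratios was -0.99 for Cxcl10 over Ccl7 and -0.66 for Cxcl10 over Ccl2 (exact permutation test, two-sided, p = 0.333, the smallest that 2 against 2 libraries can give).

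**Figure D4:**
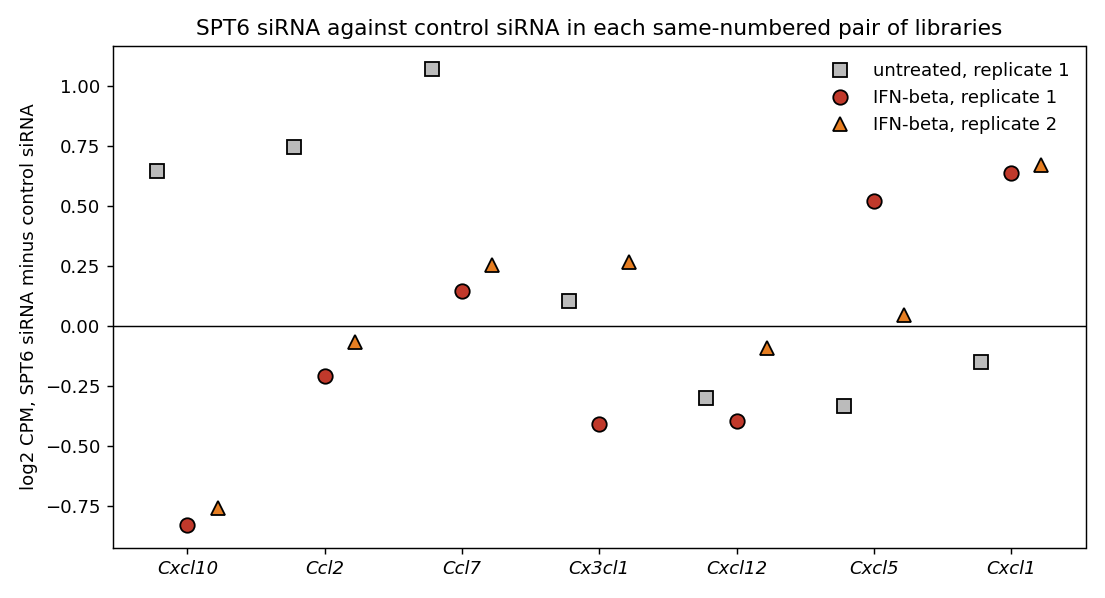
Log2 CPM of SPT6 siRNA minus control siRNA for the 7 tested chemokine genes (y axis) in the untreated pair (squares), IFN-beta replicate 1 (circles) and IFN-beta replicate 2 (triangles). Cxcl10 lay at -0.83 and -0.76 in the IFN-beta pairs, and Ccl7 at 1.07 in the untreated pair against 0.15 and 0.25 with IFN-beta; the untreated Cxcl10 point rests on 4 and 3 counts.

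In untreated cells, with 1 library against 1 and no replicate check, the monocyte chemokine genes Ccl7 and Ccl2 were the members whose level was higher under SPT6 siRNA with a counting interval above 1. Ccl7 had 190 counts (22.8 CPM) with SPT6 siRNA against 131 counts (10.8 CPM) with control siRNA, a ratio of 2.12 (exact 95% counting interval 1.69 to 2.67). Ccl2 had 358 counts (42.9 CPM) against 311 counts (25.6 CPM), a ratio of 1.68 (1.44 to 1.96). Ccl7 was the single tested member past 2-fold, a size that 3.97% of all genes exceeded upward and 6.09% in either direction. Cxcl12 was at a ratio of 0.812 (0.714 to 0.922) and Cxcl5 at 0.794 (0.662 to 0.950). The intervals of Cxcl1 (0.901, 0.687 to 1.18), Cx3cl1 (1.08, 0.899 to 1.29) and Cxcl10 (4 against 3 counts, 1.95, 0.329 to 13.3) all included 1. These intervals cover counting error only. How many of all genes have an interval that excludes 1 was not counted, so whether these members stand out is not known.

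The difference between the responses, that of SPT6 siRNA cells minus that of control siRNA cells, follows from these levels. For Ccl2 it was -0.88 ± 0.28 on the log2 scale (edgeR adjusted p = 0.9999, unadjusted p = 0.0164) and for Ccl7 -0.89 ± 0.46 (edgeR adjusted p = 0.9999, unadjusted p = 0.0943). In both genes the untreated levels differed more between the siRNAs than the IFN-beta levels did. For Cxcl10 the difference was -1.73 ± 0.99, resting on the 4 and 3 untreated counts. Cxcl1 stood at 0.82 ± 0.51, Cxcl5 at 0.56 ± 0.58, Cx3cl1 at -0.21 ± 0.44 and Cxcl12 at -0.01 ± 1.09. None of the 7 members and 0 of all genes (0%) were called by edgeR, DESeq2 or limma-voom, and 50 (0.379%), 7 and 42 genes had an unadjusted p under 0.05, Ccl2 among those of edgeR.

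Ccl5 (chromosome 11, 83525778 to 83530518, minus strand; protein coding) was at the edge of detection. It had 1 and 1 counts with SPT6 siRNA and IFN-beta, 0 and 0 with control siRNA and IFN-beta, 3 in untreated cells with SPT6 siRNA and 0 in untreated cells with control siRNA. A count of 0 allows up to 3 counts, or 0.226 and 0.178 CPM in the control siRNA libraries with IFN-beta and 0.247 CPM in the untreated one. An induction by IFN-beta was not detectable at this depth.

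Levels of different genes were compared per kilobase of exon (RPKM). With SPT6 siRNA and IFN-beta, Ccl2 led with a mean of 155 RPKM, followed by Ccl7 (81.4), Cxcl10 (38.1), Cxcl5 (9.44), Cx3cl1 (7.41), Cxcl1 (3.56) and Cxcl12 (3.50). With control siRNA and IFN-beta the order was Ccl2 (171), Ccl7 (71.2), Cxcl10 (66.2), Cxcl5 (8.03), Cx3cl1 (7.98), Cxcl12 (4.35) and Cxcl1 (2.23). Ccl7 and Cxcl10 stood apart with SPT6 siRNA (69.3 to 93.4 against 33.2 to 43.0 RPKM) and overlapped with control siRNA (58.1 to 84.3 against 56.2 to 76.3 RPKM). With control siRNA and IFN-beta, Cxcl5, Cx3cl1 and Cxcl12 each overlapped with the other two, and Cxcl1 and Cxcl12 overlapped under both siRNAs. Untreated, Ccl2 led among the members with 37.7 RPKM under SPT6 siRNA and 22.5 RPKM under control siRNA, and Cxcl10 stood at 0.213 and 0.109 RPKM. Ccl9, a chemokine gene that is not a member, stood at 14.1 and 23.2 RPKM in these untreated libraries.

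Several members have other chemokine genes close by, while Cxcl12 was the single listed ligand on chromosome 6. Of 29 further chemokine ligand genes, 10 passed the filter, 0 were called in either response or in the SPT6 siRNA comparison, and 6 had no count at all. Beside Cxcl10, Cxcl9 had 6 and 5 counts with SPT6 siRNA and IFN-beta, 10 and 10 with control siRNA and IFN-beta, and 1 in each untreated library. Cxcl11, annotated as a polymorphic pseudogene, had 3 and 7, 10 and 9, and 0 in each untreated library. Beyond Ccl2 and Ccl7, Ccl11 had at most 22 counts, Ccl12 at most 1 and Ccl8 at most 45. Between Cxcl5 and Cxcl1 the platelet chemokine gene Ppbp stood at 4.79 and 4.18 CPM with SPT6 siRNA and IFN-beta, against 1.88 and 1.31 CPM with control siRNA and IFN-beta (log2 difference 1.49 ± 0.38, edgeR adjusted p = 0.319). Cxcl3 was at 0 counts in all 6 libraries, and Cxcl2, the nearest neighbour of Cxcl1, had 1 count in all. Ccl25 stood at 9.58 and 9.48 against 5.87 and 6.29 CPM (0.65 ± 0.25, edgeR adjusted p = 0.401). The untreated pair differed in the same direction, with SPT6 siRNA against control siRNA at 3.48 against 1.23 CPM for Ppbp and 8.75 against 5.67 CPM for Ccl25. Ccl9, near Ccl5, followed the replicate number as Cxcl12 did, at 55.6 and 23.2 CPM in replicates 1 and 2 with SPT6 siRNA and IFN-beta and 102 and 25.3 CPM with control siRNA and IFN-beta.

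Receptors of the members ranged widely in level. Of 23 typical and atypical receptor genes, 11 were tested and 0 were called in any comparison. Cxcr3 and Cxcr4, which bind Cxcl10 and Cxcl12, were at 0 counts in all 6 libraries, each of which allows up to 0.178 to 0.360 CPM. Ccr2, which binds Ccl2 and Ccl7, had 3 counts over all libraries. Cxcr2, the receptor of Cxcl1 and Cxcl5, stood between 11.4 and 13.3 CPM in all 6 libraries. Cx3cr1, the receptor of Cx3cl1, had 39 counts over all libraries. Ackr3, an atypical receptor that takes up Cxcl12, stood at 32.6 and 36.5 CPM with SPT6 siRNA and IFN-beta, against 33.8 and 43.8 CPM with control siRNA and IFN-beta. Among the tested genes Ccr10 (2.32 ± 0.99) and Ccrl2 (-1.66 ± 0.82) had the smallest p-values in the SPT6 siRNA comparison (edgeR adjusted p = 0.431 and 0.480). These rest on 3 and 5 counts of Ccr10 with SPT6 siRNA and IFN-beta against 1 and 1 with control siRNA and IFN-beta, and on 4 and 2 counts of Ccrl2 against 17 and 10.

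Genes of the signalling routes that act on chemokine promoters were set beside the members. Of 13 interferon signal transducers, 0 were called with SPT6 siRNA and 2 called higher with control siRNA, beside 0.0455% and 0.137% of all genes. The 2 were Irf7 (5.19 ± 0.55) and Irf9 (3.22 ± 0.36). With SPT6 siRNA their responses were of similar size, 6.32 ± 0.67 and 3.13 ± 0.37 (edgeR adjusted p = 0.0503 and 0.0710). That of Irf7 rests on 3 untreated counts, whose counting error its SE understates. The median log2 response of the 13 genes was 1.01 with SPT6 siRNA and 1.59 with control siRNA. Stat2 stood at 205 and 138 CPM with SPT6 siRNA and IFN-beta, against 273 and 193 CPM with control siRNA and IFN-beta. Of 15 NF-kappaB subunit and feedback genes, 0 were called in any comparison and the medians of the responses were -0.04 with SPT6 siRNA and 0.15 with control siRNA. Nfkbia, which holds NF-kappaB in the cytoplasm, stood at 48.7 and 51.8 CPM with SPT6 siRNA and IFN-beta, against 28.2 and 27.2 CPM with control siRNA and IFN-beta. With IFN-beta its log2 difference was 0.86 ± 0.17 (edgeR adjusted p = 0.254), and that of Nfkbiz, a nuclear co-regulator of the family, 0.66 ± 0.20 (edgeR adjusted p = 0.356). In the untreated pair Nfkbia also stood higher, at 43.0 CPM with SPT6 siRNA against 24.5 CPM with control siRNA.

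Of 19 other inflammatory NF-kappaB target genes, 9 were tested and 0 were called. Among them Sod2, a mitochondrial superoxide dismutase gene, differed by 0.52 ± 0.18 and Lif, a cytokine gene, by 0.79 ± 0.28 (edgeR adjusted p = 0.374 and 0.376). Il6, a cytokine gene, stood at 3.67 and 2.17 CPM with SPT6 siRNA and IFN-beta, against 4.89 and 4.21 CPM with control siRNA and IFN-beta. Of 14 genes that shed, cut or bind chemokines, 8 were tested and 0 were called. Adam10 and Adam17, which shed Cx3cl1, stood at 147 and 148 CPM and at 121 and 93.9 CPM with SPT6 siRNA and IFN-beta, against 124 and 105 CPM and 111 and 86.1 CPM with control siRNA and IFN-beta. Dpp4, which clips Cxcl10 and Cxcl12, had 1 count over all libraries.

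The genes most like each member over the 6 libraries were sought by Pearson's r of log2 CPM among 9809 genes with an average log2 CPM of 3 or more. These are descriptions over 6 points, which fall into 2 untreated and 4 IFN-beta libraries and share their depth and scaling. Cxcl10 was most like Ifi205 (r = 0.999) and Irgm1 (0.998), and Ccl2 most like Apol9b (0.996) and Ddx24 (0.994). Ccl7 was most like Map2k1 (0.991) and Endod1 (0.990), Cxcl1 most like Insr (0.992) and Gatsl2 (0.988), and Cxcl5 most like Mtcl1 (0.976) and C2cd3 (0.966). Cxcl12 was most like Sfmbt2 (0.997) and Pcdhb18 (0.995), and Cx3cl1 most like Yif1b (0.984) and Gm14326 (0.971). Among the members themselves r was 0.989 for Cxcl10 with Ccl2, 0.959 for Ccl2 with Ccl7, 0.890 for Cxcl1 with Cxcl5 and -0.908 for Cxcl10 with Cxcl1.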

How the data were processed

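For each library the authors deposited a table of raw counts by gene symbol. Tools listed in the submitters' processing notes, with no role stated, are HTSeq 0.6.1p1, TopHat2 2.1.0 and DESeq2, beside the builds GRCm38 and mm10. Which annotation was counted, and with which strand option, is not given in the sources used here, and reads of overlapping or antisense genes could be shared. Reads in rows without a gene (62.0% to 67.1%, of which those not aligned uniquely were 27.9% to 31.3% of all reads) were left out.

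The counts were analysed in R 4.3.3 with edgeR 4.0.16. The low-count filter was filterByExpr with groups given and its minimum set to 10, scaling used TMM factors, and 4 group means were fitted over all 6 libraries with glmQLFit (robust) and glmQLFTest, with Benjamini-Hochberg adjustment over 13185 genes and calls at adjusted p under 0.05. Only the IFN-beta replicates inform the spread (2 residual degrees of freedom), and the single untreated libraries were assumed to vary like them. DESeq2 1.42.0, limma-voom (limma 3.58.1), other scaling, other filters, a replicate block, the IFN-beta libraries alone and leaving out each IFN-beta library were alternatives. Each SE is the size of the log2 difference divided by the root of its F statistic. Where untreated counts are few, this SE can understate their counting error. RPKM uses union exon length of GENCODE M21 (GRCm38). Log2 CPM within pairs has a prior count of 2. The script was tested on simulated counts. Members, lists, alternatives and the rule for named genes (all members, list genes that were called, up to 4 per list with the smallest p, the 2 genes most like each member) were chosen with earlier results of these data known; other named genes were chosen after their values were seen. Some genes of the lists are not reported here.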

Additional observations from a re-analysis of the deposited data

Results flagged for a closer look

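For 3 members the SPT6 siRNA difference had one sign in the untreated pair and the opposite sign in every pairing of IFN-beta libraries. The difference of the responses was tested in each case and not called by edgeR (adjusted p = 0.9999 each). It was -1.73 for Cxcl10, where untreated cells had 4 counts with SPT6 siRNA and 3 with control siRNA, -0.88 for Ccl2 and 0.82 for Cxcl1, on the log2 scale. Each rests on 1 untreated library per siRNA, and the untreated counting intervals of Cxcl10 and Cxcl1 included 1. How many of all genes have such opposite signs was not counted. The IFN-beta groups alone did not overlap for 44% of all genes.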

How the results depend on the processing

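Genes called in the IFN-beta response with SPT6 siRNA were 6, and 12 with library size only, 129 with DESeq2, 0 with limma-voom, 46 with no filter and 9 to 25 with 1 IFN-beta library left out. With control siRNA they were 18, and 204 with DESeq2, 5 with limma-voom, 77 with no filter, 10 with a count minimum of 30 and 16 to 52 with 1 library left out. For SPT6 siRNA with IFN-beta they were 0, 62 with DESeq2, 66 with no filter and 0 with any 1 library left out. Without a filter Ccl2 was called with SPT6 siRNA (adjusted p = 0.00094) and Ccl7 with control siRNA (adjusted p = 0.00253). The cause of these moves was not tested.

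With the replicate number as a block, edgeR called 545, 957 and 2638 genes in those comparisons and 4 in the difference of responses, against 0. This fit has fewer residual degrees of freedom than the 2 of the main fit, and its block is estimated from the IFN-beta libraries alone. Cxcl10 (-0.79, adjusted p = 1.0e-06) and Cxcl1 (0.67, adjusted p = 0.0354) were then called in the SPT6 siRNA comparison, Ccl2, Ccl7, Cxcl5 and Cxcl10 in the response with SPT6 siRNA, and these and Cxcl1 in that with control siRNA. Supt6 was also called in the SPT6 siRNA comparison (-0.90, adjusted p = 5.6e-08). The labels do not say what the number stands for; deviations of same-numbered IFN-beta libraries correlated at r = 0.56 over genes.

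Signs turned only where values were uncalled. The Cxcl12 difference of responses was 0.018 with library size only, 0.061 with limma-voom, 0.0017 with a count minimum of 30, 0.043 with the replicate block, and -0.77 to 0.95 with 1 library left out. With 1 library left out, the SPT6 siRNA difference ran from -0.13 to 0.75 for Cxcl5, -1.05 to 0.64 for Cxcl12, -0.40 to 0.27 for Cx3cl1 and -0.053 to 0.50 for Ccl7. The Cx3cl1 response with control siRNA ran from -0.0096 to 0.65 and its difference of responses from -0.50 to 0.17. The Supt6 response was -0.024 with control siRNA by library size only and -0.20 to 0.078 with SPT6 siRNA, and its difference of responses -0.30 to 0.0042. Depth limits Cxcl10 untreated and Ccl5 throughout.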
